A study of Mus musculus with 6 samples.

Results

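The comparison described here set mouse bone marrow cells carrying CSF3R with T618I against the same kind of cells carrying the control vector. CSF3R is the receptor of granulocyte colony-stimulating factor (G-CSF). Every row of the deposited gene table with a usable symbol and with 1 FPKM or more in at least 2 of the 6 libraries of the series was included, which gave 11188 genes of 23417. FPKM counts the fragments of a transcript for its length in kilobases and for the depth of the library. Each gene is described by its FPKM in both libraries and by the difference T618I minus vector of log2(FPKM + 1), a scale on which low values change less than their ratio. A gene is called 2-fold higher or lower where that difference reached 1 in either direction.

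The cells were Kit-positive bone marrow cells of wild-type C57BL/6 mice, enriched on CD117 beads and kept in FLT3, IL-6, IL-3 and mSCF. They were transduced with retrovirus carrying either the control vector or CSF3R with T618I, sorted by flow cytometry and grown overnight in the same cytokines, and stranded mRNA libraries were made from total RNA. The other constructs were the truncations W791 and Q741, and T618I together with either one. The series set out to contrast mutants its design text calls leukemogenic, the proximal one and the double mutants, with truncations it calls non-leukemogenic. Each construct had 1 library and the labels name no separate animals or cultures, so no difference between 2 single libraries has a replicate check, an SD or a test. No library carried the receptor without a mutation, so in T618I against vector the effect of adding a receptor and that of its mutation cannot be told apart. W791 and Q741 are set beside vector as controls that also received a receptor, each with its own mutation.

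G-CSF drives the proliferation of granulocyte precursors and their maturation to neutrophils. Its receptor has no kinase of its own and signals through the Janus kinases, STAT3, STAT5 and the Ras and ERK pathway, with Socs3 as a feedback inhibitor. T618I lies in the membrane-proximal part of the receptor and is a recurrent mutation of chronic neutrophilic leukaemia that leaves the receptor active without ligand. Neutrophil precursors make primary granule enzymes first, specific granule proteins next, and gelatinase granule proteins and chemoattractant receptors last.

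The columns summed to between 439505 and 492025 FPKM, with 458967 for vector and 466537 for T618I. Depth is not stated in the table. Estimated from the spacing of low values, it was such that a transcript of 1 kb at 1 FPKM stood for about 42.6 fragments with vector, 19.7 with T618I and 19.4 to 24.5 in the other libraries. Lower values are therefore less precise in the T618I library, and any part of this depth gap in the results was not tested. Ptprc, which encodes the leukocyte antigen CD45, was at 114 FPKM with vector and 123 with T618I. Kit was at 34.5 and 32.6 and Cd34 at 66.2 and 129. Of the T and NK cell list, 4 of 20 genes were measured, with a summed level of 41.7 FPKM with vector and 30.5 with T618I, and the T cell receptor genes Cd3d, Cd3e and Cd3g were at 0 in both. Of the B lymphoid list, 5 of 16 were measured, at 57.4 and 30.9 FPKM in sum; Dntt, Cd22 and Blnk were 2-fold or more lower (median -1.01) and Vpreb2, a gene of B cell precursors, was at 0 in both. Of the stroma and endothelium list, 5 of 18 were measured, at 76.3 and 68.3 FPKM in sum; Vcam1 and Igfbp7 were 2-fold or more lower (median -0.23) and Dcn, Lum and Cxcl12 were at 0 in both. Markers of neutrophil, erythroid, megakaryocyte, mast cell, monocyte and dendritic lineages were all measured, so each library held RNA of several lineages. In such bulk RNA, fewer cells of a type and less RNA per cell cannot be told apart.

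With T618I, 305 genes were 2-fold or more higher than with vector (2.73% of the genes) and 142 were 2-fold or more lower (1.27%). These shares are the background for all list counts in this report. The share of all genes above or below 0 is not given here. The lists were chosen with earlier results of these data known, so their counts are a description. At 4-fold the counts were 83 and 16. Most genes differed little: the median difference was -0.07, the median absolute difference 0.17, and 9660 genes (86.3%) lay within 0.5. The higher genes reached further and held more abundant genes, since 64 of the 305 were at 50 FPKM or more in the T618I library and 9 of the 142 lower genes were at that level in the vector library. For scale, W791 against vector gave 30 higher (0.268%) and 34 lower genes (0.304%), and Q741 against vector gave 17 (0.152%) and 92 (0.822%). Those comparisons share the vector library with T618I against vector.

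**Figure D1:**
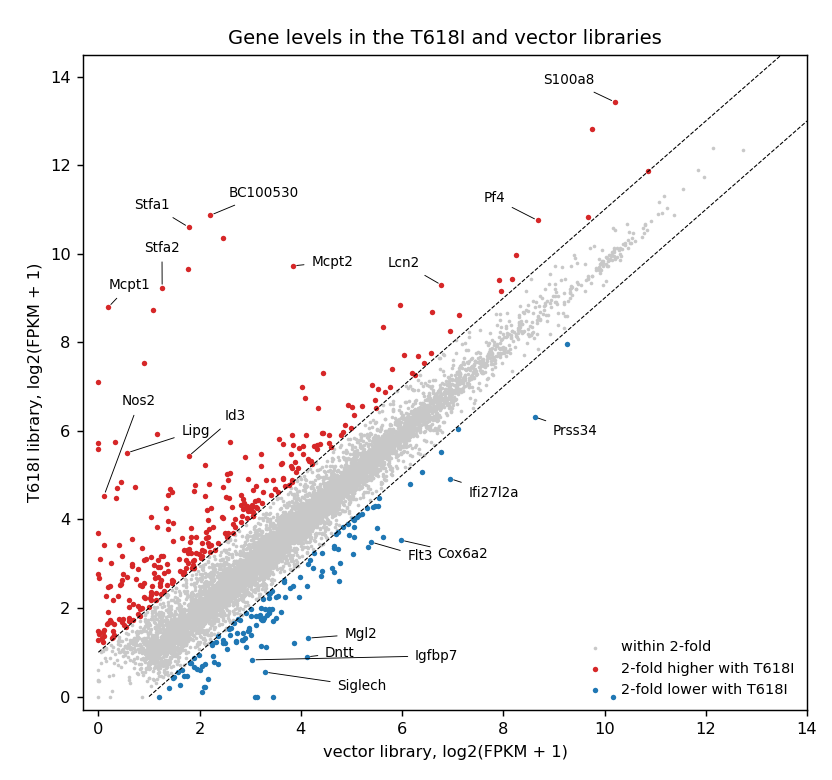
Level of each of the 11188 genes in the vector library (horizontal) and the T618I library (vertical), both as log2(FPKM + 1), with 1 point per gene. Dashed lines mark 2-fold; the 305 red points lie above the upper line, led by the stefin genes, Mcpt1 and Mcpt2, and the 142 blue points lie below the lower line.

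Values given 6 in a row follow a fixed order: vector, W791 and Q741 first, then T618I, and last the double mutants T618I/Q741 and T618I/W791. Mouse Csf3r (chromosome 4, 126024550 to 126044440 on mm10) was at 53.1, 52.8, 56.7, 69.4, 95.9 and 38.8 FPKM, a T618I minus vector difference of 0.38. No source used here says whether reads of the introduced receptor enter this value, so it does not check the label.

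The stefin A cluster showed the widest differences. Stefin A proteins inhibit cysteine cathepsins, and mouse neutrophils express several copies of the gene. All 9 measured genes of the cluster on chromosome 16 between 36156811 and 36455392 were 2-fold or more higher with T618I, and no other gene was measured in that interval. Promoters are shown for Stfa1, the gene with the highest difference, and Stfa2l1, another copy, to let the members be compared letter by letter. S100a8 is shown as the gene with the largest gain in FPKM, and Prss34 as the lower gene that led the comparison across pairs described further on. Sequences are from RefSeq on GRCm38.p6, run from 250 bases before the annotated start to 50 bases after it, and are written 5′ to 3′ on the gene's strand. Capitals mark matches on either strand to motifs bound by STAT factors (TTCNNNGAA), C/EBP factors (TTGCNNAA), PU.1 (GAGGAA) and GATA factors (AGATAA); a base may belong to more than 1 motif.

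Stfa1 (chr16:36276898-36277197, + strand): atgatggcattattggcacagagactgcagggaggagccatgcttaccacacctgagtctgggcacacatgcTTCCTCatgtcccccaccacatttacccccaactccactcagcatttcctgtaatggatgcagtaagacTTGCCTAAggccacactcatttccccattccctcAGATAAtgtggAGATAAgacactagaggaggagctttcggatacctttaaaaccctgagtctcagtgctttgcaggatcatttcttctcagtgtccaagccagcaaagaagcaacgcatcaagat
Stfa2l1 (chr16:36156561-36156860, + strand): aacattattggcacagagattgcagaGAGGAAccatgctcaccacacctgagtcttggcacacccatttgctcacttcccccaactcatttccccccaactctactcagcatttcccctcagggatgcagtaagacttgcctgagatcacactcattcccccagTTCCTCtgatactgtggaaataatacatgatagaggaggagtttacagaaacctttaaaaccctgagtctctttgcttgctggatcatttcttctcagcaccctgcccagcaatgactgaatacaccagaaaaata
S100a8 (chr3:90668821-90669120, + strand): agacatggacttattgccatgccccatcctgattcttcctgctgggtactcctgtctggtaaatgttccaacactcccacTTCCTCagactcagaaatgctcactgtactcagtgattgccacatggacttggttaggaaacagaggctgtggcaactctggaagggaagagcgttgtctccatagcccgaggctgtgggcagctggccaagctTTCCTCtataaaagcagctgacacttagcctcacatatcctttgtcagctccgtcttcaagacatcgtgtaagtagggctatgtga
Prss34 (chr17:25298144-25298443, + strand): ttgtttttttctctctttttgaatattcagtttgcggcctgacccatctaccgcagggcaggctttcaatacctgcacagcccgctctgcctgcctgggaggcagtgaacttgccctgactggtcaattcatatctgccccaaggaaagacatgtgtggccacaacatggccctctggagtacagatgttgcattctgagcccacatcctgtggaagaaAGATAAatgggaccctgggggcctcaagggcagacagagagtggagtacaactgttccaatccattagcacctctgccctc

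The promoters of Stfa1, Stfa2, Stfa2l1 and Stfa3 shared between 80.3% and 91.7% of their 300 bases in pairwise alignment, with Stfa2 and Stfa2l1 the closest pair. Each of these 4 held the PU.1 letters, as did 28.3% of the 27025 promoters in the table. The STAT letters were in none of the 4, against 8.47% of all promoters. The C/EBP letters, in 10.8% of all promoters, were in Stfa1 alone of the 4, and the GATA letters, in 11.4%, were in Stfa1 and Stfa3. Since the copies are alike in sequence, these matches are not separate observations, and they describe letters, not bound sites.

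Stfa1 was at 2.44, 5.27, 3.10, 1553, 1026 and 1469 FPKM, a T618I minus vector difference of 8.82. BC100530, another member, was at 3.64, 7.66, 2.97, 1873, 3006 and 3990 FPKM (8.66). Stfa3 was at 1.12, 4.34, 1.68, 424, 1232 and 928 FPKM (7.65). For each of these genes every library with T618I stood far above every library without it. Stfa2 and Stfa2l1 differed by 7.97 and 7.89. Gm5416 and BC117090 were listed at 0 in the vector, W791 and Q741 libraries and were at 51.8 and 11.9 FPKM with T618I. Cstb, the stefin B gene, which lies outside the cluster, was at 249 FPKM with vector and 269 with T618I. Between 0.0% and 33.7% of the 50-base windows of a cluster transcript occur in another member, so the division of reads among the copies is uncertain, but the summed level of the stefin list went from 265 FPKM with vector, nearly all of it Cstb, to 7088 with T618I.

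Neutrophil genes other than the stefins differed by granule list, with calprotectin and late genes higher and primary granule genes within 2-fold. S100a8 (chromosome 3, 90668978 to 90670035) and S100a9, which encode the subunits of calprotectin, were at 1178 and 867 FPKM with vector and 11020 and 7240 with T618I, differences of 3.22 and 3.06. W791 and Q741 were at 1789 and 1712 FPKM for S100a8. The 8 measured S100 genes had a median difference of 0.27, and these 2 were the only ones past 2-fold. The top 10 genes of a library held 8.22% of all FPKM with vector and 10.1% with T618I.

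Of 15 primary granule genes, none was past 2-fold in either direction (median 0.33, beside -0.07 for all genes). Mpo, the myeloperoxidase gene, was at 637, 839, 801, 566, 588 and 553 FPKM. Elane, the neutrophil elastase gene, was at 253, 306, 275, 289, 714 and 247 FPKM. For both genes the vector and T618I values lay close together, and for Mpo the truncations alone were the highest libraries.

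Of 24 genes in the specific granule list, 8 were 2-fold or more higher with T618I and 1 was lower, beside 2.73% and 1.27% of all genes. The list median was 0.44, or 0.17 with the mean of W791 and Q741 as control, and the list divided by gene. Cd177, a neutrophil surface receptor gene, was at 2.72, 3.21, 2.33, 24.0, 89.0 and 45.7 FPKM (2.75). Lcn2, the gene of the siderophore-binding lipocalin, was at 109, 155, 141, 628, 1339 and 787 FPKM (2.52). Pglyrp1, Itgb2l, Ltb4r1, Ifitm6, Mmp8 and Ceacam10 were the other higher members. Ltb4r1, a chemoattractant receptor gene, and Ifitm6 do not encode granule proteins, so the count is not of granule proteins alone. By contrast, Ltf, the lactoferrin gene, was at 24.2, 43.7, 28.7, 23.3, 320 and 95.8 FPKM (-0.05). Camp, the cathelicidin gene, was at 9.81, 14.3, 10.5, 4.25, 60.5 and 12.0 FPKM (-1.04), with the T618I library the lowest of the 6. Ngp, another neutrophil granule protein gene, was at 151 FPKM with vector, 251 with T618I and 2988 with T618I/Q741, and Chil3 was at 248, 233 and 1028. For Ltf, Camp, Ngp and Chil3 the T618I library lay nearer to vector than to T618I/Q741.

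Of 25 gelatinase granule and late maturation genes, 12 were 2-fold or more higher, beside 2.73% of all genes. None was 2-fold lower, and the median was 0.91. With the mean of W791 and Q741 as control that median was 0.47. Retnlg, which encodes a resistin-like neutrophil protein, was at 0.294, 0.838, 0.102, 25.3, 107 and 14.7 FPKM (4.35). Mmp9, the gelatinase B gene, was at 0.591, 1.21, 0.296, 10.7, 54.6 and 15.1 FPKM (2.88). Cxcr2, the chemokine receptor that brings neutrophils out of the marrow, was at 11.5, 10.6, 9.36, 50.9, 102 and 29.3 FPKM (2.05). In all 3 genes no library without T618I reached any library with it. Fpr1, Trem1, Mxd1, Il1r2, Arg2, Padi4, Fpr2, Steap4 and Asprv1 made up the rest of the 12. The range of the other 13 was -0.48, for Ccl6, to 0.91, for Trem3. Cebpe, the C/EBP factor of late granulocyte maturation, was at 6.42, 8.34, 7.86, 18.2, 31.0 and 24.0 FPKM (1.37). Cebpa and Cebpb, which act earlier and in emergency granulopoiesis, differed by -0.32 and 0.12, and Spi1, which encodes PU.1, by 0.06. Erythroid and megakaryocyte genes and the mast cell genes Mcpt1, Mcpt2, Mcpt4 and Gzmb, given below, were also higher, while the mast cell and basophil list as a whole had a median of -0.07. Their part in the neutrophil differences was not tested.

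**Figure D2:**
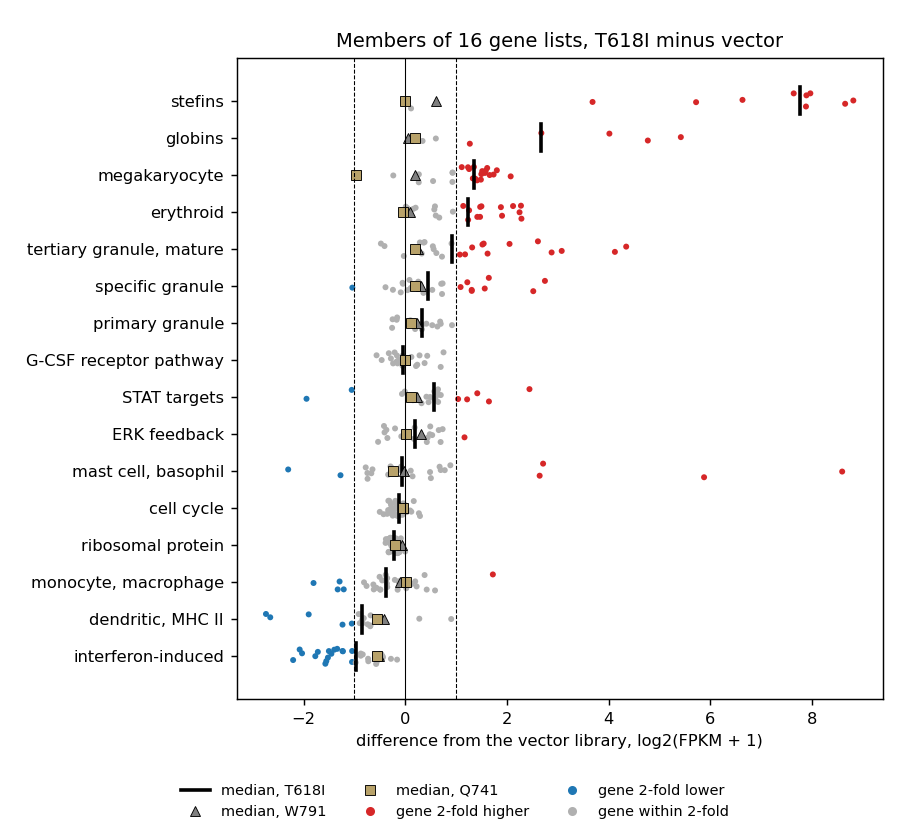
T618I minus vector difference in log2(FPKM + 1) of each measured member of 16 gene lists, 1 point per gene, with the list's median as a black bar. Triangles and squares mark the list medians of W791 and Q741 minus the same vector library; stefin, globin, megakaryocyte, erythroid and late neutrophil genes lie to the right with T618I, and for dendritic and interferon-induced genes the W791 and Q741 medians also lie left of 0.

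The signalling chain below the receptor was little altered in RNA level. All 24 genes of the list of receptor, kinases and adaptors lay within 2-fold (median -0.05), with Jak3 at 0.75 and Fgr at 0.70. Stat3 was at 46.6 FPKM with vector and 63.1 with T618I, and Jak2 at 37.3 and 36.1. Of 23 STAT target genes, 5 were 2-fold or more higher and 2 lower, beside 2.73% and 1.27% of all genes. The list median was 0.57, or 0.24 with the mean of W791 and Q741 as control. Socs3, the feedback inhibitor of this receptor, was at 45.3, 85.7, 73.8, 123, 156 and 31.6 FPKM (1.42), so T618I/W791 had the lowest level and W791 and Q741 lay between vector and T618I. Gadd45g was at 5.10, 11.1, 7.98, 32.2, 33.1 and 22.1 FPKM (2.44), and Pim2, a survival kinase gene, was at 7.62, 13.1, 8.55, 25.98, 13.4 and 24.5 FPKM (1.65). The direct STAT5 target Cish was at 4.35 FPKM with vector, 6.35 with T618I, 9.92 with W791 and 10.1 with Q741. Id1 and Il4ra were the other higher members. Lower were the cyclin genes Ccnd1 (39.1, 17.8, 17.3, 9.43, 5.53 and 3.54 FPKM, -1.94) and Ccnd2 (29.7 with vector and 13.8 with T618I), while Ccnd3 was at 107 and 168 FPKM. Of 19 ERK feedback and immediate early genes, 1 was past 2-fold: the phosphatase gene Dusp1 was at 16.9, 38.1, 30.1, 39.2, 38.1 and 11.4 FPKM (1.17), and W791 was close to T618I.

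Among 21 cytokine receptors, 4 were 2-fold or more higher, Il1r2, Epor and Il4ra among them, and Flt3 was lower. The decoy receptor gene Il1r2 was at 31.4 FPKM with vector and 91.8 with T618I. The cytokine receptor beta chain genes Csf2rb and Csf2rb2 differed by 0.80 and 0.92.

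A few mast cell protease genes set the T618I library apart from every other one. Mcpt1, a chymase gene of mucosal mast cells, was at 0.147, 0.499, 0.354, 444, 65.4 and 12.3 FPKM, a difference of 8.60. Mcpt2 was at 13.4, 36.4, 33.7, 847, 188 and 100 FPKM (5.88). Mcpt4, a connective tissue mast cell chymase gene, was at 16.04, 23.8, 15.8, 105, 39.7 and 16.2 FPKM (2.64). For these 3 genes T618I was the highest library by more than 2-fold over the next. Gzmb, the granzyme B gene, which lies further along chromosome 14 with Mcpt8 in between, went from 48.5 FPKM with vector to 323 with T618I (2.71). No 50-base window of Mcpt1, Mcpt2, Mcpt4 or Mcpt8 occurs in another of these 4 transcripts. Cpa3, the mast cell carboxypeptidase gene, was at 684 FPKM with vector and 958 with T618I, Hdc, which makes histamine, at 49.4 and 46.6, and Tpsb2, a tryptase gene, at 193 and 157.

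Of the 25 genes in the mast cell and basophil list, 4 were 2-fold or more higher, 2 were lower and the median was -0.07. The higher genes were Mcpt1, Mcpt2, Mcpt4 and Gzmb, and the lower ones Prss34 and Il4. Prss34, a tryptase gene of basophils (chromosome 17, 25298394 to 25300165), was at 393, 371, 363, 78.7, 12.6 and 31.1 FPKM (-2.30), so all libraries without T618I stood above all with it. Its promoter, printed above, held 1 match to the GATA letters and none to the other motifs. Mcpt8, the basophil marker protease, was at 614, 632, 678, 386, 93.7 and 109 FPKM (-0.67). Il4 was at 4.63 FPKM with vector and 1.33 with T618I (-1.28), and Ms4a2, the beta chain of the high-affinity IgE receptor, at 47.9 and 27.5 (-0.78), while its alpha chain gene Fcer1a was at 113 and 210 (0.89).

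All 23 measured erythroid genes lay above 0, and 13 were 2-fold or more higher with T618I, with a median of 1.24. Over all genes 2.73% were 2-fold or more higher, and the median was -0.07. Klf1, the transcription factor of red cell precursors, was at 0.679, 0.950, 0.708, 5.29, 4.98 and 16.9 FPKM (1.90). Car2, a carbonic anhydrase gene, was at 8.32, 9.71, 7.30, 43.3, 25.8 and 176 FPKM (2.25). Epor, the erythropoietin receptor gene, was at 2.03 FPKM with vector and 7.57 with T618I (1.50). T618I/W791 was the highest library for these genes and T618I came next. Haem synthesis genes of the list moved less: Fech differed by 0.16, Alad by 0.20 and Urod by 0.01. The globin genes Hbb-bt and Hba-a2 were at 1.23 and 0.654 FPKM with vector and 59.9 and 25.8 with T618I, and 5 of 7 globin genes were 2-fold or more higher (median 2.68, which was 5.10 with a pseudocount of 0.1 and 1.06 with 5). Of the 50-base windows of Hbb-bt 58.3% occur in another beta globin transcript, and of Hba-a2 89.3% in the other alpha globin transcript, so the division among globin copies is uncertain.

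Of 25 genes of megakaryocytes and platelets, 18 were 2-fold or more higher with T618I, beside 2.73% of all genes. None was 2-fold lower and the median was 1.35. Pf4, the platelet factor 4 chemokine gene, was at 409, 549, 202, 1725, 904 and 944 FPKM (2.07). Itga2b, the integrin alpha chain gene of platelets, was at 78.8, 90.2, 44.9, 206, 99.5 and 100 FPKM (1.38). T618I was the highest library for both genes. The adhesion receptor genes Gp1ba, Gp1bb, Gp5, Gp6, Gp9 and Vwf were all 2-fold or more higher, between 1.24 and 1.66. Gata1, shared by the erythroid and megakaryocyte lists, was at 11.6 FPKM with vector and 29.1 with T618I (1.26). The summed FPKM of the list was 1701 with vector and 4284 with T618I. Q741 lay below vector on this list with a median of -0.98 and 11 of 25 genes 2-fold or more lower, so its members differ more from T618I when Q741 is the control.

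**Figure D3:**
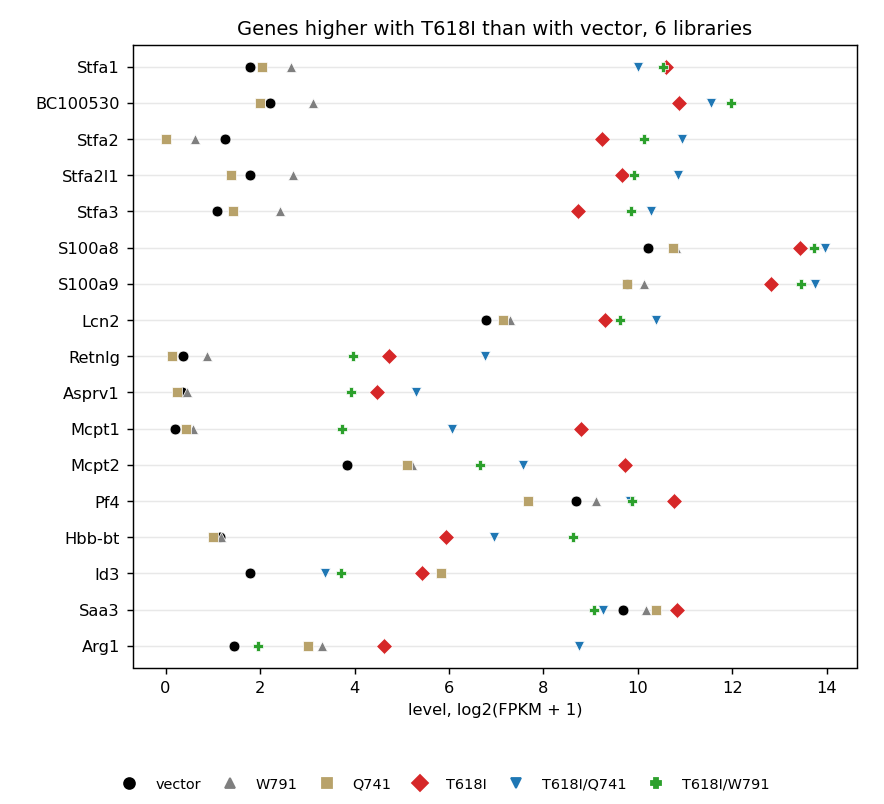
Level in log2(FPKM + 1) of 17 genes that were higher with T618I than with vector, 1 symbol per library. The stefin genes, S100a8, S100a9, Lcn2, Retnlg and Asprv1 have all 3 libraries with T618I to the right of all 3 without it; Mcpt1, Mcpt2 and Pf4 are highest with T618I alone, and Id3 and Saa3 have W791 and Q741 beside or near T618I.

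Small RNA and predicted gene symbols were left out of the ranking that follows. At 5 FPKM or more in the higher library, the lowest differences were those of Dntt, Mgl2, Siglech, Ly6d, Cox6a2 and Prss34, in that order. No list holds them all. Dntt, the terminal transferase gene of early lymphoid cells (chromosome 19, 41029275 to 41059525), was at 16.4, 1.70, 1.01, 0.860, 0.268 and 0.0202 FPKM (-3.23). Siglech, a plasmacytoid dendritic cell receptor gene, was at 8.80, 1.54, 1.93, 0.466, 0.0973 and 0 FPKM (-2.74). Flt3, the receptor gene for one of the cytokines in the medium, was at 40.9, 17.5, 14.95, 10.2, 6.74 and 1.84 FPKM (-1.90). In each of these genes the vector library stood alone at the top, and W791 and Q741 lay well below it, for Dntt nearly at the level of T618I. Ly6d, Sox4, Bcl11a and Egfl7 were ordered in the same way, with vector first and T618I below both truncations in all but Bcl11a, where Q741 was lowest of these at 9.04 FPKM against 9.17.

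Of 19 dendritic cell and MHC class II genes, 5 were 2-fold or more lower, beside 1.27% of all genes, and none was higher. The list median was -0.85, or -0.42 with the mean of W791 and Q741 as control. The medians of W791 and Q741 against the same vector library were -0.43 and -0.55. Cd74, the invariant chain gene, was at 1006, 899, 779, 623, 593 and 180 FPKM (-0.69), and H2-Ab1, an MHC class II beta chain gene, at 287, 214, 171, 163, 182 and 41.8 FPKM (-0.82). Irf8, the factor of monocyte and dendritic cell fate, was at 83.3, 57.1, 58.1, 32.5, 36.9 and 15.6 FPKM (-1.33), and here T618I was clearly below W791 and Q741 as well.

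All 33 measured interferon-induced genes were below 0, 16 were 2-fold or more lower, and the median was -0.98, or -0.41 with the mean of W791 and Q741 as control. Over all genes 1.27% were 2-fold or more lower than with vector, and the median was -0.07. Ifit3, an antiviral gene, was at 8.98, 2.88, 3.13, 1.16, 1.01 and 0.300 FPKM (-2.21). Irf7, the factor that amplifies interferon production, was at 26.5, 12.5, 12.8, 7.06, 14.7 and 3.91 FPKM (-1.77). Ifi27l2a was at 123, 52.0, 29.7, 29.3, 75.3 and 15.2 FPKM (-2.03). Vector was the highest library in these 3 genes, and for Ifi27l2a Q741 and T618I were level. The list medians of W791 and Q741 against vector were -0.53 and -0.55, and 6 members were 2-fold or more lower in each.

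Another set of lower genes kept a high level in W791 and Q741. Igfbp7, a secreted binding protein gene of the IGF system, was at 7.24, 8.79, 8.32, 0.776, 1.03 and 0.874 FPKM (-2.22). Emr4, a receptor gene of macrophages and other myeloid cells, was at 6.53, 4.48, 7.07, 1.15, 0.190 and 0.566 FPKM (-1.81). Osbpl3, which encodes a lipid-binding protein, was at 12.8, 10.4, 11.3, 4.51, 3.94 and 3.78 FPKM (-1.33). In these genes, as in Prss34, all libraries without T618I stood above all with it. Ly6c2, a surface antigen gene of inflammatory monocytes with a near copy, Ly6c1, that can share its reads, was at 611, 566, 685, 249, 443 and 417 FPKM (-1.29) and had the lowest value with T618I alone. Mgl2, a lectin gene of macrophages and dendritic cells, was at 16.7, 9.40, 12.4, 1.50, 8.54 and 1.84 FPKM (-2.83). Of the eosinophil list, Epx, Prg2, Prg3 and Alox15 were 2-fold or more lower and Serpinb2 and Cebpe were higher among 10 genes. The granule protein genes Epx and Prg2 were at 3.47 and 70.4 FPKM with vector and 0.324 and 26.99 with T618I. Of 32 monocyte and macrophage genes, 4 were lower, 1 was higher (Spp1, 303 FPKM with vector and 1003 with T618I) and the median was -0.37.

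**Figure D4:**
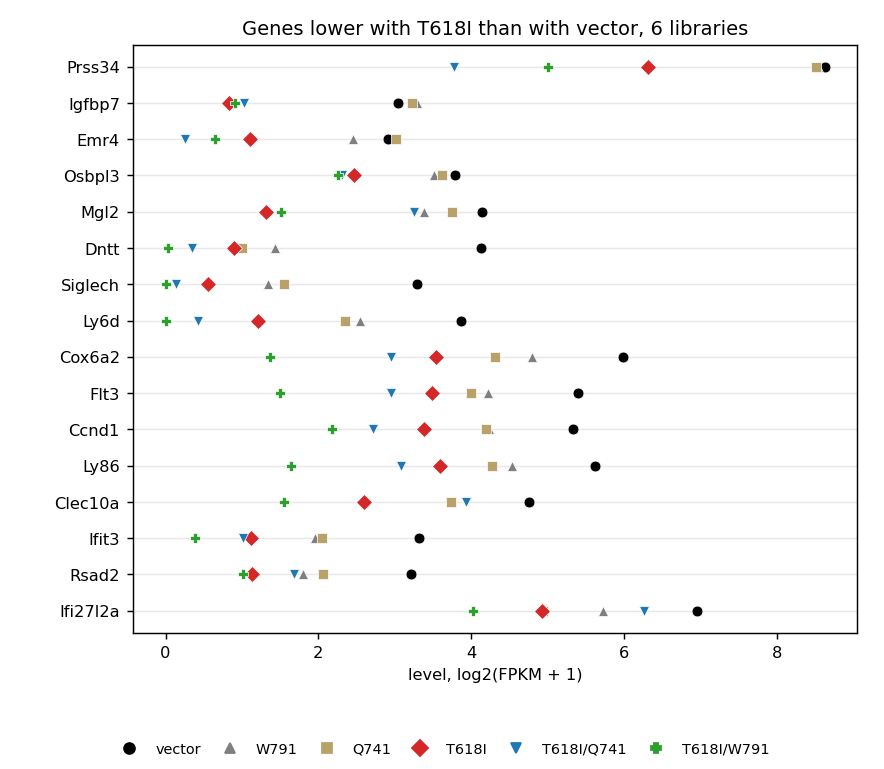
Level in log2(FPKM + 1) of 16 genes that were lower with T618I than with vector, 1 symbol per library. For Prss34, Igfbp7, Emr4 and Osbpl3 the W791 and Q741 symbols lie beside vector; from Dntt to Ifi27l2a vector is the highest library and W791 and Q741 lie between it and T618I or near T618I.

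The counts depended on the control, more on the lower side than on the higher. With the mean of W791 and Q741 in place of vector, 300 of the 11188 genes were 2-fold or more higher with T618I. Of the 305, 247 (81.0%) were among them. On the lower side 46 of the 11188 genes were counted, and 36 of the 142 (25.4%) were among them. Both comparisons use the same T618I library, so part of this overlap is built in. The higher genes also had the wider differences, and any part of this in the overlap was not tested. Vector was the highest of the 6 libraries for 119 of the 142 lower genes, and T618I was the highest for 131 of the 305 higher genes. Over the 142 lower genes the median level was 9.02 FPKM with vector, 5.19 with W791, 5.19 with Q741 and 2.53 with T618I. Over the 305 higher genes it was 3.11 with vector, 4.40 with W791, 2.22 with Q741 and 15.4 with T618I. The 142 and 305 genes were chosen on the vector and T618I levels, which are given as a description. Among the 36 genes lower against both controls were Prss34, Igfbp7, Mgl2, Emr4, Ly6c2, Il4, Epx, Prg3, Vcam1, Lif, Ass1, Cd36, Camp and Akr1c18. The aldo-keto reductase gene Akr1c18 was at 2.08, 5.50, 8.12, 0.196, 0.550 and 2.28 FPKM, so it was higher in both truncations than in vector.

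T618I was also added to each truncation in this series, and those pairs share no library with T618I against vector. T618I/Q741 against Q741 gave 530 higher (4.74%) and 211 lower genes (1.89%), and T618I/W791 against W791 gave 262 (2.34%) and 477 (4.26%). Of the 305 genes higher with T618I alone, 214 were higher in the Q741 pair, 70.2% of the 305 and 40.4% of the 530. In the W791 pair 140 were higher, 45.9% of the 305 and 53.4% of the 262. In both pairs 116 were higher, 38.0% of the 305 and 74.8% of the 155 genes higher in both pairs (1.39% of all genes), and 67 were higher in neither. Of the 142 lower genes, 49 were lower in the Q741 pair, 34.5% of the 142 and 23.2% of the 211. In the W791 pair 88 were lower, 62.0% of the 142 and 18.4% of the 477. In both pairs 38 were lower, 26.8% of the 142 and 42.7% of the 89 genes lower in both (0.795% of all genes). In each direction the pair with the longer list held the larger share of these genes.

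The 3 pairs with and without T618I were also entered in a single fit, although they do not make the same change. The vector pair adds a receptor along with T618I, whereas the W791 and Q741 pairs add T618I to a truncated receptor. The SEs and p-values of the fit assume that these unlike pairs vary like replicates, which was not tested. A limma fit over all 11188 genes, with the backbone (vector, W791 or Q741) as a block, called 83 genes higher (0.742%) and 36 lower (0.322%) at a Benjamini-Hochberg adjusted p under 0.05. This fit was added after the data had been seen, includes the T618I and vector pair itself, and gives the mean over backbones rather than the difference of T618I alone. Of the 305 higher genes 81 were called (26.6%), and of the 142 lower genes 31 (21.8%). Both sets were chosen on a difference that enters the fit. These shares, and the p-values of their members below, are therefore not separate support. All 9 genes of the stefin cluster were called, with Stfa1 at a mean difference of 8.22 (SE 0.23, limma adjusted p = 0.000746). S100a8 and S100a9 had mean differences of 3.12 and 3.46 (limma adjusted p = 0.0043 and 0.00725), and Cd177 of 3.66 (limma adjusted p = 0.0299). Of the 25 late neutrophil genes 4 were called higher: Asprv1, Fpr1, Il1r2 and Mxd1. Of 23 erythroid genes 4 were called, of 25 megakaryocyte genes 3, and of 33 interferon-induced genes 1, which was lower. On the lower side Igfbp7 (-2.27, SE 0.14), Ccnd1 (-1.83, SE 0.17) and Prss34 (-3.53, SE 0.45) had limma adjusted p-values of 0.00701, 0.0203 and 0.0469. Mcpt1, at a mean of 5.79 (SE 0.97), and Dntt, at -1.76 (SE 0.49), did not pass, with limma adjusted p-values of 0.0755 and 0.191. The counts rest on which pairs enter: without the vector pair 146 genes were higher and 68 lower, without the W791 pair 284 and 99, and without the Q741 pair 228 and 219. Each of these counts was above that of the fit with all 3 pairs, so the number of genes called is not settled by these libraries.

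Predicted gene, Rik clone and small RNA symbols were left out of all rankings in this paragraph. Left out in this way were Gm5483, 2010005H15Rik and Gm5416 of the stefin cluster, with T618I minus vector differences of 7.90, 6.64 and 5.72. Genes higher in all 3 pairs by the widest margin were, in order of their smallest difference, BC100530, Stfa2, Stfa1, Stfa3, Stfa2l1, Lipg, Hbb-bt, Hbb-b1, Hba-a2, BC117090, Asprv1 and Mcpt1. The widest margins among genes lower in all 3 were those of Prss34, Igfbp7, Ly6d, Emr4, Bex6, Fam26f, Ccnd1, Ctnnd2, Serpinf1, Cox6a2, Siglech and Osbpl3. Lipg, the endothelial lipase gene, was at 0.482, 0.400, 0.375, 44.4, 116 and 90.6 FPKM (4.94). Cox6a2, which encodes a subunit of cytochrome c oxidase, was at 62.1, 26.8, 18.8, 10.6, 6.72 and 1.57 FPKM (-2.45). Nos2, Prrt4 and Retnlg were among the 15 highest differences of T618I alone without entering the first of these lists. Nos2, the inducible nitric oxide synthase gene, was at 0.0807, 0.493, 0.281, 22.3, 35.99 and 5.34 FPKM (4.43), which was higher in every library with T618I.

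**Figure D5:**
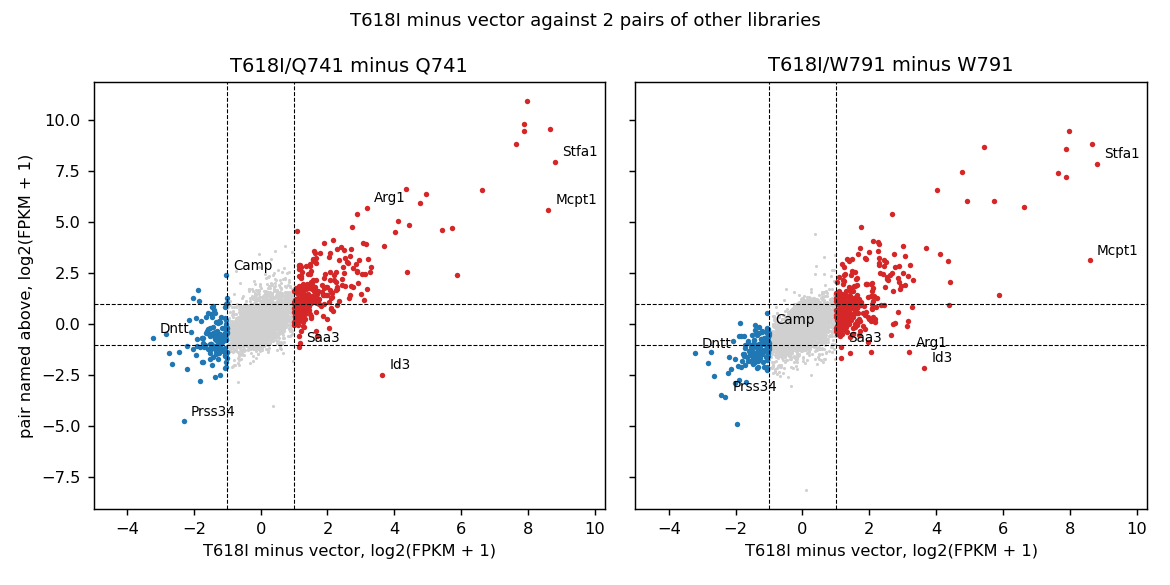
Difference T618I minus vector (horizontal) against the difference T618I/Q741 minus Q741 (left, vertical) and T618I/W791 minus W791 (right, vertical), all in log2(FPKM + 1), 1 point per gene without small RNA genes. Red and blue points are genes 2-fold or more higher and lower with T618I alone; most red points lie above 0 in both panels, with Id3 and Saa3 below -1 in both, and the blue points lie lower in the right panel than in the left.

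A few genes went opposite ways. Arg1, the arginase gene, was at 1.73, 8.97, 7.13, 23.7, 430 and 2.87 FPKM, a difference of 3.18 with T618I alone and -1.37 in the W791 pair. Serpina3b was at 3.69, 6.31, 1.89, 18.2, 1.57 and 1.91 FPKM, highest by far with T618I alone. Myl10, a myosin light chain gene, was at 24.2 FPKM with vector and 6.00 with T618I and at 17.5 with Q741 and 39.8 with T618I/Q741. Under the naming rule 6 higher and 3 lower genes of T618I against vector were past 2-fold the other way in at least 1 of the other pairs.

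Lipid and metal genes held some of the other high values. Of 30 sterol and lipid genes, 2 were 2-fold or more higher, Lipg and Dgat2, and none was lower (median 0.26). Dgat2, which makes triglycerides, was at 6.48, 9.37, 9.33, 41.8, 36.7 and 46.7 FPKM (2.52), all libraries with T618I well above the rest. Mt2, a metallothionein gene, was at 61.4, 90.8, 57.2, 458, 360 and 387 FPKM (2.88), and Mt1 at 288, 392, 293, 689, 671 and 637 FPKM (1.25). The other 4 genes of the zinc list lay within 0.5. Il1f9, which encodes IL-36 gamma, was at 4.78, 6.54, 5.16, 31.4, 34.6 and 26.3 FPKM (2.48), the only higher gene of 29 NF-kB and inflammatory genes, of which Ccl5 and Cxcl10 were lower. Of 7 Schlafen genes Slfn4 (2.45) and Slfn1 (1.59) were higher and Slfn5 (-1.08) was lower.

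General cell functions differed little. None of 36 cell cycle genes was past 2-fold, with a range of -0.50 to 0.29 and a median of -0.13. None of 33 oxidative phosphorylation genes (median -0.15), 25 stress genes (0.04) or 7 phagocyte oxidase genes (0.16) was past it either. The 41 ribosomal protein genes were within 2-fold too, the lowest at -0.39, with a median of -0.22 beside -0.07 for all genes. They took 9.93% of all FPKM with vector and 8.46% with T618I. Of 28 glycolysis and hypoxia genes, Slc2a3, a glucose transporter gene, was the only one past 2-fold (43.4 FPKM with vector and 103 with T618I), and the median was 0.27. Among 23 p53 and apoptosis genes, Bcl2 (10.7 FPKM with vector and 3.84 with T618I) and Perp were lower.

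By position, called genes formed runs, defined as 3 or more with gaps of at most 200000 bases. The higher genes formed 8 runs and the lower genes 5. Runs among as many genes drawn from all measured genes were not counted, so these numbers have no background. Beside the stefin cluster, the run on chromosome 14 from 55700009 to 56262260 held 7 called genes of 17 measured: Tgm1, Ltb4r1, Mcpt-ps1, Mcpt1, Mcpt2, Mcpt4 and Gzmb. On chromosome 5, from 90759360 to 90773383, all 3 measured genes were higher: Cxcl5, Ppbp and Pf4. The lower genes held Ifit2, Ifit3, Gm14446 and Ifit1, all 4 measured genes on chromosome 19 from 34550694 to 34650009, and Mndal, Mnda and Ifi203, all 3 on chromosome 1 from 173849126 to 173942672. Neighbouring copies can share reads, so the genes of a run are not separate observations.

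Small RNA genes made up 8 of the 305 and 5 of the 142 genes. Snord16a was at 1141 FPKM with vector, 977 with W791 and 1041 with T618I/W791, and it was listed at 0 with Q741, T618I and T618I/Q741. Libraries of poly(A) RNA capture such short RNAs poorly and a 0 can be a failed estimate, so no fold is given for them. Of the 305 genes, 7 were listed at 0 in the vector library: BC117090, Gm5416, Hbb-y, Rtn4rl2, Slc4a1, Snora28 and Snora31.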

How the data were processed

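RNA was measured by stranded mRNA sequencing in 6 libraries, 1 per construct. The deposited FPKM values were made by the authors with TopHat and Cufflinks on mm10, per the submitters' processing notes, which name no versions. The header of the 1 deposited table names no unit. FPKM, the unit Cufflinks writes, was read from the decimals and the column sums, which are too uneven for TPM. No source used here gives the annotation or the use of strand. Columns were matched to the titles by name, the double mutants by their letters. Of 23444 rows, 27 whose symbol had become a date were left out. Differences of log2(FPKM + 1) were computed without further scaling in Python 3.11.15 with pandas 2.3.3 and numpy 2.4.6, for genes reaching 1 FPKM in 2 or more libraries, and a 2-fold threshold was applied with no test. The 3 pairs with and without T618I were fitted on the same scale with limma 3.58.1 (a mean-variance trend, the backbone as a block, 2 residual degrees of freedom, Benjamini-Hochberg adjustment over all genes); this assumes that pairs on different backbones vary like replicates. Both computations were tested on simulated data. For the fit, the simulated pairs had the same T618I shift and independent errors, so that test does not check the assumption about unlike pairs.

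Depth was estimated from the spacing of low values over 2153 genes whose only GENCODE M21 transcript (same build) exceeds 1500 bases. Of the measured symbols, 10629 (95.0%) were in that annotation, which gave the coordinates (1-based). The 35 gene lists and the comparison itself were chosen with earlier results of these data known. Beside list members and Csf3r, the named genes are the 15 highest and 15 lowest differences at 5 FPKM or more in the higher library, the 10 largest gains and losses in FPKM, 12 genes per direction past 2-fold in all 3 pairs, ranked by the smallest difference, and up to 8 per direction past 2-fold the other way in another pair; predicted, small RNA, olfactory receptor and ribosomal pseudogene symbols were left out of these. Genes named for their position, for a value of 0 or among those lower against both controls were chosen after their values were seen. Alternatives were pseudocounts of 0.1 and 5, no filter, a filter of 5 FPKM in T618I or vector, 3 scalings, and the mean of W791 and Q741 as control. A few genes of the lists are not reported here by name.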

Additional observations from a re-analysis of the deposited data

Results flagged for a closer look

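Id3, which encodes an inhibitor of helix-loop-helix factors, was higher with T618I than with vector (3.65 on the log2 scale) and lower past 2-fold when T618I was added to either truncation. Its level was 2.45, 56.1, 56.2, 42.1, 9.36 and 12.2 FPKM in the report's order (vector, W791 and Q741, then T618I, then T618I/Q741 and T618I/W791). Vector was the lowest library, and W791 and Q741 stood above T618I.

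Saa3, an acute phase gene, was also higher with T618I than with vector (1.15) and lower past 2-fold in both other pairs. It was at 820, 1155, 1333, 1817, 608 and 537 FPKM in the same order, so T618I alone was the highest library and the double mutants were the lowest. With 1 library per construct, neither difference between pairs was tested.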

How the results depend on the processing

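T618I and vector had 1 library each, so the pair itself has no paired fit. The 305 higher and 142 lower genes were 454 and 248 with a pseudocount of 0.1, 155 and 44 with a pseudocount of 5, and 300 and 46 with the mean of W791 and Q741 as control. The other filters and the 3 scalings gave 250 to 332 higher and 112 to 154 lower genes; median-ratio scaling moved the median of all genes from -0.07 to -0.00. List medians that moved by 0.25 or more were these. With the mean of W791 and Q741 as control the stefins were at 7.22, the late neutrophil list at 0.47, specific granule genes at 0.17, STAT targets at 0.24, megakaryocyte genes at 1.76, dendritic and MHC class II genes at -0.42, interferon-induced genes at -0.41, B lymphoid genes at -0.24, eosinophil genes at -0.75 and the aldo-keto reductases at -1.80. With a pseudocount of 0.1 the stefins were at 8.38, erythroid genes at 1.85, globins at 5.10 and eosinophil genes at -0.67. With a pseudocount of 5 the stefins were at 6.35, erythroid genes at 0.57, globins at 1.06, interferon-induced genes at -0.55, B lymphoid genes at -0.55 and the aldo-keto reductases at -0.57. With 5 FPKM in T618I or vector, erythroid genes were at 0.95, globins at 4.40, eosinophil genes at -1.35 and T and NK cell genes at -0.62. With no filter, globins were at 1.27, S100 genes at 0.00, B lymphoid genes at -0.12 and the aldo-keto reductases at -0.03. Of 49 named genes past 2-fold, 33 stayed past it with W791 and Q741 as control, 15 did not, and Id3 reversed to -0.41; with a pseudocount of 5, 44 stayed. Pseudocounts shrink or widen low values by construction; the cause of the change with control was not tested. The limma fit over 3 pairs, which called 83 higher and 36 lower genes with the backbone as a block, called 75 and 22 with no replicate block, 104 and 37 with a pseudocount of 0.1, and 52 and 23 with a pseudocount of 5. Leaving out each pair in turn gave 146 to 284 higher and 68 to 219 lower genes. Depth limits genes near 1 FPKM most, and more in the T618I library than in the vector library.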

Other observations

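With small RNA and predicted gene symbols left out, the largest losses in FPKM with T618I were of abundant genes. They stayed under 2-fold for 9 of the 10 named. Lyz2, the lysozyme gene of myeloid cells, was at 6787, 5892, 6461, 5181, 6790 and 3312 FPKM in the report's order (vector, W791 and Q741, then T618I, then T618I/Q741 and T618I/W791), a difference of -0.39. Psap, which encodes the precursor of the saposins of the lysosome, was at 2632, 2333, 2515, 1878, 2747 and 1194 FPKM (-0.49). Plac8 was at 1038, 865, 822, 667, 654 and 803 FPKM (-0.64), highest with vector. Ly6c2 was the exception past 2-fold.

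Of 26 stem and progenitor genes, 3 were 2-fold or more higher with T618I, 4 were lower and 15 lay below 0 (median -0.14). The lower members were Flt3, Sox4, Egfl7 and Bcl11a. Sox4, a transcription factor gene, was at 16.4, 8.65, 6.23, 4.68, 4.74 and 1.80 FPKM (-1.62). Egfl7, which encodes a secreted protein, was at 30.1, 14.01, 12.1, 11.6, 8.32 and 5.59 FPKM (-1.30), and Bcl11a, another transcription factor gene, at 24.0, 10.7, 9.04, 9.17, 5.17 and 9.72 FPKM (-1.30). Vector was the highest library for all 4 lower genes. Mycn was at 1.27, 2.50, 1.40, 6.63, 3.77 and 5.81 FPKM (1.75). Slamf1, which marks stem cells and megakaryocytes, was at 3.54, 3.96, 1.17, 12.9, 6.77 and 9.50 FPKM (1.61), and Esam, an adhesion gene of both, at 3.79, 4.37, 1.21, 13.1, 3.96 and 4.40 FPKM (1.56). T618I was the highest library for these 3 genes. Cd34 was also highest with T618I, at 129 FPKM, against 83.3 in the next library, W791, and 35.1 in the lowest, T618I/W791.

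Thy1 was at 0.526, 0.423, 0.550, 3.52, 13.4 and 1.24 FPKM (1.57), while the T cell receptor genes Cd3d, Cd3e and Cd3g were at 0 with vector and T618I.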
